A study of Mus musculus with 6 samples.

Results

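Collagens are trimers of chains that wind around each other through repeats of glycine followed by any 2 residues (Gly-X-Y), and each chain has a gene of its own. The chain genes are the 44 genes, of 21929 in the deposited table, whose symbol is Col, a type number, the letter a and a chain number. The title of the series names the desmoplastic reaction, the build-up of fibrous matrix around a tumour, in gastric cancer, and collagens are the main proteins of such matrix. The chains were compared in L929 cells, a clonal mouse fibroblast line, between groups labelled by whether the cells had interacted with tumour cells. The 3 Biotin-positive libraries are from L929 cells labelled as having interacted with tumour cells, which the labels give by the code MFCSTCL, and the 3 Biotin-negative libraries are from L929 cells labelled as not having done so. These labels do not say whether the Biotin-negative cells shared a culture with tumour cells, and no library is labelled as L929 grown alone. How the biotin mark was placed and the cells were divided is not stated in the sources used here. All 6 libraries carry the same batch label. Whether replicate libraries stem from separate cultures is not labelled, so the p-values reflect only library-to-library spread, and that spread may be technical.

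The chains fall into classes by how their trimers are built into the matrix. Most fibrillar collagens have a long unbroken triple helix and pack side by side into the banded fibrils of connective tissue. FACIT collagens (fibril-associated collagens with interrupted triple helices) sit on the surface of such fibrils. Network collagens form sheets, among them type IV of basement membranes, while type VI forms beaded filaments around cells. Transmembrane collagens stay in the cell membrane, multiplexins are basement membrane collagens with many interruptions of the helix, and type VII makes the anchoring fibrils below epithelia. Fibroblasts are the main producers of types I, III, V and VI.

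RNA was measured as FPKM, fragments scaled to the length of the gene and to the size of the library. The length used for each gene is not given, so levels of different genes can be set side by side only roughly. The difference of 1 gene between the groups does not depend on that length. Differences are Biotin-positive minus Biotin-negative in log2(FPKM + 1), where the added 1 makes changes of low genes look smaller. They were tested with limma across the 11029 genes that had 1 FPKM or more in 3 or more libraries. A gene rose or fell where its Benjamini-Hochberg adjusted p over all 11029 genes was under 0.05. The FPKM of a library summed to between 349753 and 356681 in the Biotin-positive group and between 337771 and 340511 in the Biotin-negative group. Genes with 1 FPKM or more numbered 10838 to 10862 in Biotin-positive and 10724 to 10735 in Biotin-negative libraries. The correlation of log2(FPKM + 1) across genes was 0.998 to 0.999 between libraries of a group and 0.977 to 0.978 between libraries of different groups. Reads per library are unknown, since FPKM do not keep them.

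Collagen transcripts were lower in Biotin-positive cells. Summed over all 44 chains they came to 792, 768 and 789 FPKM in the Biotin-positive libraries, against 2032, 1911 and 1959 FPKM in the Biotin-negative libraries. Every Biotin-positive sum was below every Biotin-negative one, and the ratio of the group means (783 ± 13.2 over 1968 ± 61.2 FPKM, SD, n = 3 each) was 0.398. Collagen chains made up 0.221% ± 0.00518 of all FPKM in Biotin-positive libraries and 0.580% ± 0.0158 in Biotin-negative ones (SD, n = 3 each). In bulk RNA, fewer cells that express a gene cannot be told apart from less RNA per cell.

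Of the 44 chains, 20 reached the level for testing, and of these 15 fell, 3 rose and 2 did not pass. With a minimum of 5 FPKM, 15 chains were left to test, of which 13 fell and 1 rose. Over all 11029 tested genes, 36.1% fell and 37.8% rose, with a median log2 difference of 0.01, against a median of -0.90 for the 20 chains, which ranged from -3.79 to 0.40. A log2 difference of -1 or less was found for 8 of the 20 chains and for 3.41% of all tested genes. No chain had a log2 difference of 1 or more, which 5.29% of all tested genes had. Biotin-positive and Biotin-negative libraries did not overlap for 18 of the 20 chains, beside 76.9% of all tested genes. Col9a1 reached the level for testing through the Biotin-negative libraries alone and Col20a1 through the Biotin-positive libraries alone, so for these genes the filter itself favours a difference. The other 24 chains were too low for a test and are described further on.

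**Figure D1:**
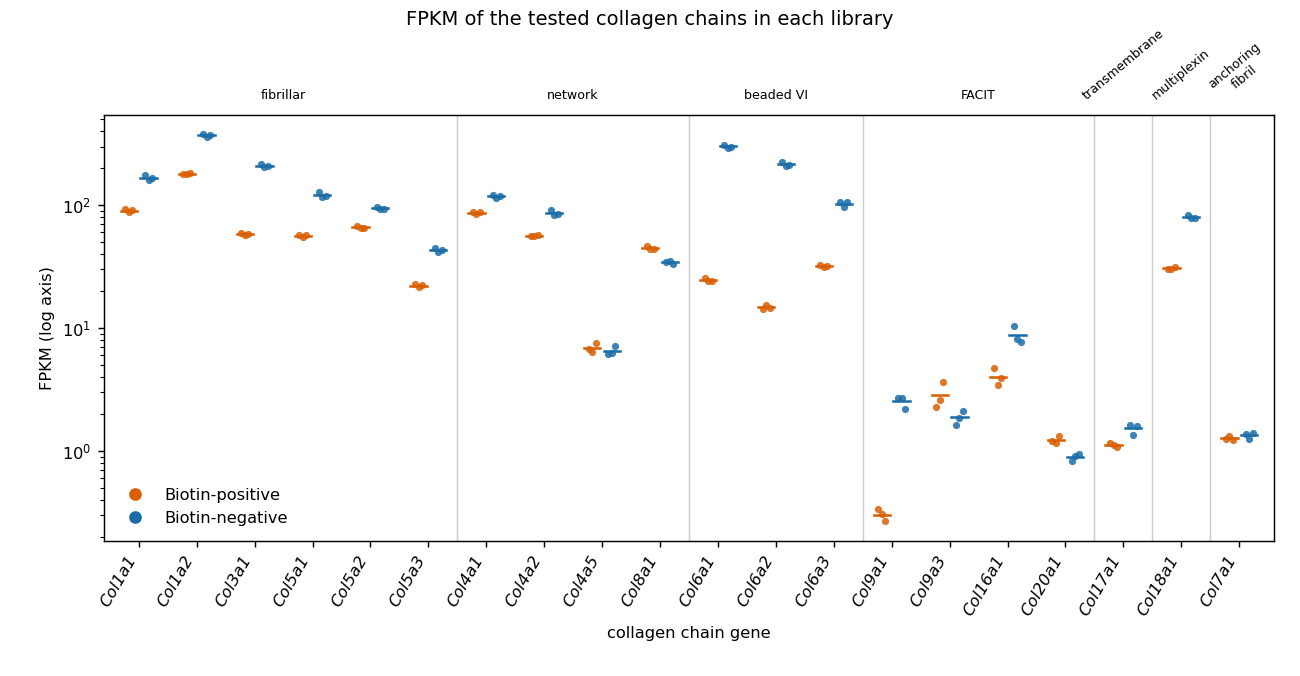
FPKM of the 20 tested collagen chains on a log axis, grouped by class, with 1 point per library and a line at the mean of each group of 3 libraries (Biotin-positive orange, Biotin-negative blue). The points of a group lie close together, and the fibrillar and type VI chains are lower in Biotin-positive libraries, while Col8a1, Col9a3 and Col20a1 are higher.

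All 6 tested fibrillar chains fell, with a median log2 difference of -0.98, beside 36.1% of all tested genes that fell. Type I collagen, the main fibril former of most connective tissues, is built from the products of Col1a1 and Col1a2. Col1a1 (chromosome 11, 94936224 to 94953042 on the GRCm38 build, to which all gene coordinates given here belong) was at 92.4, 87.2 and 91.4 FPKM in Biotin-positive libraries, against 175, 161 and 166 FPKM in Biotin-negative libraries. Col1a2 (chromosome 6, 4504814 to 4541544), which had the highest level of all chains in both groups, was at 180.5, 178 and 181 FPKM in Biotin-positive libraries, against 378, 359 and 373 FPKM in Biotin-negative libraries. Neither gene's libraries overlapped between the groups. The log2 differences were -0.88 (SE 0.0392, limma adjusted p = 1.84e-07) for Col1a1 and -1.04 (SE 0.0290, limma adjusted p = 1.70e-08) for Col1a2.

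Col3a1, whose product forms the homotrimer of type III collagen that mixes into type I fibrils of skin and vessels, fell most among the fibrillar chains. It was at 58.9, 57.1 and 58.5 FPKM in Biotin-positive libraries, against 215, 203 and 207 FPKM in Biotin-negative libraries. The groups lay far apart relative to their spread, with a ratio of the means of 0.280 and a log2 difference of -1.82 (SE 0.0313, limma adjusted p = 1.60e-09). Counted from the largest fall of the 11029 tested genes, it came in place 57.

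Type V collagen sits inside type I fibrils and limits their diameter, and its 3 chain genes did not fall by the same amount. Col5a1 (chromosome 2, 27886425 to 28039514) was at 57.6, 55.0 and 57.3 FPKM in Biotin-positive libraries, against 127, 116 and 119.5 FPKM in Biotin-negative libraries (log2 difference -1.08, SE 0.0393, limma adjusted p = 6.02e-08). Col5a3 (chromosome 9, 20770050 to 20815067), the least abundant of the 3, was at 22.7, 21.6 and 22.2 FPKM in Biotin-positive libraries, against 44.5, 41.3 and 42.8 FPKM in Biotin-negative libraries (log2 difference -0.92, SE 0.0392, limma adjusted p = 1.46e-07). Col5a2 had the smallest fall of the fibrillar chains, with 67.5, 64.8 and 65.7 FPKM in Biotin-positive libraries, against 96.3, 93.7 and 93.9 FPKM in Biotin-negative libraries. Its log2 difference was -0.51 (SE 0.0296, limma adjusted p = 8.15e-07), and like the others it showed no overlap between the groups.

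Col5a2 is the neighbour of Col3a1 on chromosome 1, with 24614 bases between the pair. Col3a1 runs from 45311538 to 45349706 on the plus strand and Col5a2 from 45374321 to 45503282 on the minus strand, so that their 3′ ends face each other. The log2 differences of these neighbours, -1.82 and -0.51, lie at opposite ends of the fibrillar range. Of the genes that flank the pair, Gulp1, an adaptor gene of phagocytosis, fell (5.93 ± 0.191 FPKM in Biotin-positive and 13.8 ± 2.17 FPKM in Biotin-negative libraries, SD, n = 3 each, limma adjusted p = 1.12e-05). Wdr75, a ribosome biogenesis gene on the other side, did not pass (31.4 ± 1.98 FPKM in Biotin-positive and 33.1 ± 1.21 FPKM in Biotin-negative libraries, limma adjusted p = 0.212).

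The 6 tested fibrillar chains share a long unbroken helix. Col24a1 and Col27a1, fibrillar chains too low for a test, have shorter longest runs of 216 and 217 repeats. Translated from the GENCODE vM21 release, their longest unbroken Gly-X-Y run spans 1011 to 1032 residues, or 337 to 344 repeats. Col6a1 and Col6a2 each have a longest run of 87 repeats (261 residues), and Col6a3 has one of 45. The longest run is 40 repeats in Col4a1, 66 in Col4a2, 42 in Col4a5, 61 in Col8a1, 113 in both Col9a1 and Col9a3, and 30 in Col18a1. Chains with equally long runs did not have equal differences: Col9a1 fell and Col9a3 rose with 113 repeats each.

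The largest falls among the chains were those of Col6a1 and Col6a2, genes of type VI collagen. This collagen forms a microfibril that links cells to the surrounding fibrils. Its monomer joins the products of Col6a1 and Col6a2 with a longer chain, the product of Col6a3 or a relative of it. Col6a1 was at 25.3, 24.2 and 24.2 FPKM in Biotin-positive libraries, against 310.2, 294 and 297 FPKM in Biotin-negative libraries. Col6a2 was at 14.3, 15.3 and 14.5 FPKM in Biotin-positive libraries, against 224, 209 and 214 FPKM in Biotin-negative libraries. For these 2 genes the Biotin-positive libraries all lay far below the Biotin-negative ones, with no overlap and little spread within either group. The ratio of the group means was 0.0818 for Col6a1 (log2 difference -3.56, SE 0.0338, limma adjusted p = 2.80e-10) and 0.0681 for Col6a2 (log2 difference -3.79, SE 0.0389, limma adjusted p = 2.80e-10). Among the falls of all 11029 tested genes, Col6a2 came in place 2 and Col6a1 in place 4.

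Col6a3 fell as well, but less. It was at 32.7, 31.7 and 31.8 FPKM in Biotin-positive libraries, against 106, 97.3 and 105 FPKM in Biotin-negative libraries. The ratio of the means was 0.312 and the log2 difference -1.65 (SE 0.0399, limma adjusted p = 8.59e-09), in place 87 of the falls. In FPKM the order of the 3 genes was turned round. Col6a3 had the highest level of the 3 in every Biotin-positive library and the lowest in every Biotin-negative library. This order depends on the gene lengths used, which are not given. The relatives of Col6a3 were near 0: Col6a4 was at 0.270 to 0.379 FPKM in Biotin-positive and 0.164 to 0.265 FPKM in Biotin-negative libraries, and Col6a5 and Col6a6 stayed at or under 0.0198 FPKM in all 6.

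Col6a2 and Col6a1 lie in tandem on chromosome 10, both on the minus strand, at 76595762 to 76623630 and 76708792 to 76726168, with 85161 bases and no other gene of the deposited table between them. Col6a3 is on chromosome 1, at 90765923 to 90843971. The genes that flank the tandem pair were too low for a test, with Ftcd at 0.0185 ± 0.00319 FPKM in Biotin-positive and 0.149 ± 0.0467 FPKM in Biotin-negative libraries and Pcbp3 at 0.348 ± 0.106 FPKM in Biotin-positive and 0.675 ± 0.249 FPKM in Biotin-negative libraries (SD, n = 3 each). The promoter windows of the 3 type VI genes run from 250 bases before to 50 bases after the start site, from RefSeq on GRCm38.p6. They are printed 5′ to 3′ on the gene's strand because Col6a1 and Col6a2 had the largest falls of the family. Capitals mark matches to 5 motifs, each searched on both strands. They are the CCAAT box, the GC box with the letters GGGCGG and the TATA box with the letters TATAAA, all common in promoters. The core bound by the TEAD partners of YAP was searched as CATTCC and the site of the AP-1 factors as TGACTCA. Col6a2 has 2 annotated start sites and so 2 windows.
Col6a1, chr10:76725995-76726294, minus strand: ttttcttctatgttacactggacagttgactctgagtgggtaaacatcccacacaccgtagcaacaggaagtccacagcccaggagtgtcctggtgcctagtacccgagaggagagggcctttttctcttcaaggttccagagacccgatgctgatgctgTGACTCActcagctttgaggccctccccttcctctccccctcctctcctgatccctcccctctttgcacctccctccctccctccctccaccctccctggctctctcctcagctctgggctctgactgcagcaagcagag
Col6a2, chr10:76623355-76623654, minus strand: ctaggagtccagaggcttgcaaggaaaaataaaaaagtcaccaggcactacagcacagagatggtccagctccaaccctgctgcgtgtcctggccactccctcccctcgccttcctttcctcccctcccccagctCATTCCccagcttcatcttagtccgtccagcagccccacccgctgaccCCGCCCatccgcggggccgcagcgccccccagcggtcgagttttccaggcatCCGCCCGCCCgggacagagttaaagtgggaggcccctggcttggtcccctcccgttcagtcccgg
Col6a2, chr10:76623581-76623880, minus strand: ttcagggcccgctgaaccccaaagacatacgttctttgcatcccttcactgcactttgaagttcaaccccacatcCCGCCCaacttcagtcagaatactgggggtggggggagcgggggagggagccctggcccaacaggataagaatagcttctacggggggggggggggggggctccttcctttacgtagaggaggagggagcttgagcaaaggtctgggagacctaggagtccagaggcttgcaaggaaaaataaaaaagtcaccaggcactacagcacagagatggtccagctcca
Col6a3, chr1:90843922-90844221, minus strand: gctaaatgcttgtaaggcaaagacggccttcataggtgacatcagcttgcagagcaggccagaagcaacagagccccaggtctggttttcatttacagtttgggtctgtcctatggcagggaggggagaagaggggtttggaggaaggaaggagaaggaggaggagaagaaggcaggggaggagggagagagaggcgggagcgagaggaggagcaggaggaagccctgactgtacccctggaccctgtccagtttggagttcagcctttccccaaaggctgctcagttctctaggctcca
No motif was found in the windows of more than 1 of the 3 genes. Col6a1 holds an AP-1 match at -90, counted with the start site as 0. The first Col6a2 window holds a TEAD match at -115 and GC box matches at -67, -15 and -11, the last pair overlapping, and the second window holds 1 GC box match at -175. None of the 5 motifs has these letters in the Col6a3 window. Of all 32851 promoter windows in the table, 37.4% hold a CCAAT box, 35.7% a GC box, 13.6% a TATA box, 14.7% a TEAD match and 5.2% an AP-1 match. Of 38 windows that matched 35 collagen chains, 13 hold a CCAAT box, 23 a GC box, 5 a TATA box, 5 a TEAD match and 1 an AP-1 match. A match of letters is a description of the window and not a site at which binding was measured.

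**Figure D2:**
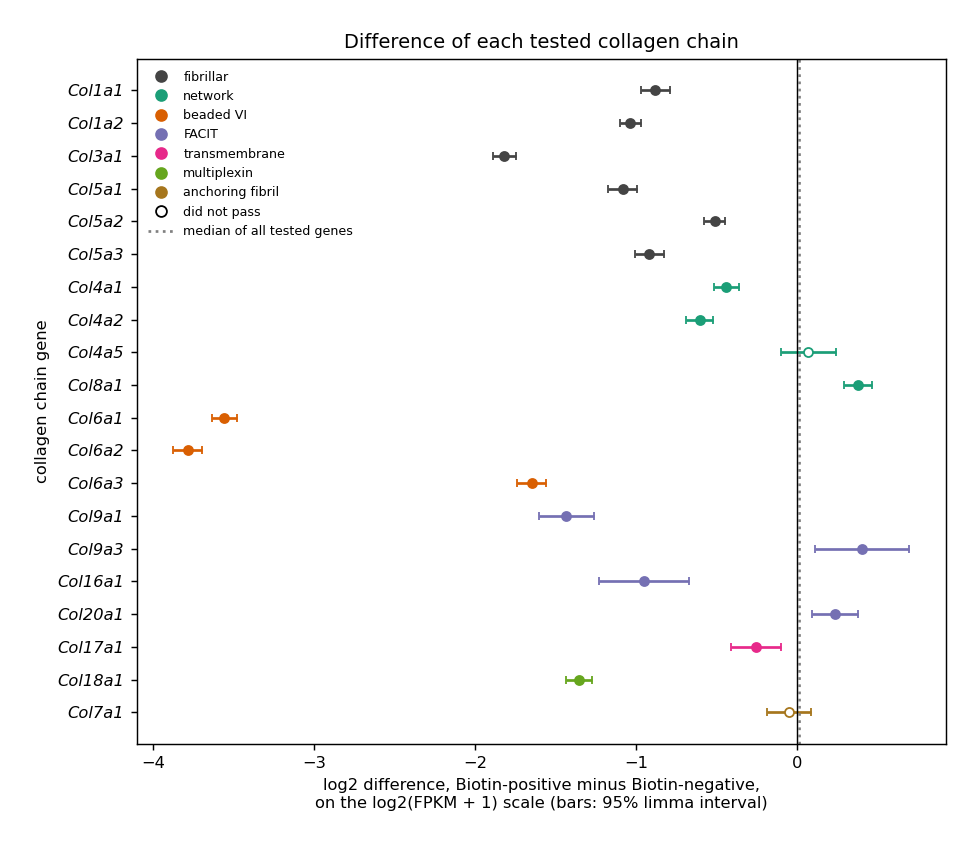
Log2 difference of each tested collagen chain, Biotin-positive minus Biotin-negative on the log2(FPKM + 1) scale, with its 95% limma interval, coloured by class; open circles did not pass and the dotted line is the median of all tested genes (0.01). Col6a1 and Col6a2 lie at -3.56 and -3.79, apart from every other chain, and the network and FACIT chains lie on both sides of 0.

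The network class was split, with 2 falls, 1 rise and 1 chain that did not pass (median log2 difference -0.19). Such a split is near that of all tested genes, of which 36.1% fell and 37.8% rose. Col4a1 and Col4a2 make the type IV trimer found in nearly all basement membranes. Col4a1 was at 87.8, 84.9 and 88.2 FPKM in Biotin-positive libraries, against 122, 114 and 119 FPKM in Biotin-negative libraries. Col4a2 was at 56.3, 56.3 and 56.8 FPKM in Biotin-positive libraries, against 90.8, 83.8 and 84.8 FPKM in Biotin-negative libraries. Both were lower in every Biotin-positive library, with log2 differences of -0.44 (SE 0.0336, limma adjusted p = 4.61e-06) and -0.61 (SE 0.0363, limma adjusted p = 1.05e-06), smaller than those of most fibrillar chains.

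These type IV genes are transcribed away from each other on chromosome 8. Col4a1 (11198423 to 11312826, minus strand) and Col4a2 (11312805 to 11449287, plus strand) overlap by 22 bases at their 5′ ends in the deposited coordinates, and the RefSeq start sites are 21 bases apart. Their RefSeq promoter windows (GRCm38.p6) are shown because they share 78 bases, from 11312777 to 11312854, which are in capitals and read as reverse complements of each other.
Col4a1, chr8:11312777-11313076, minus strand: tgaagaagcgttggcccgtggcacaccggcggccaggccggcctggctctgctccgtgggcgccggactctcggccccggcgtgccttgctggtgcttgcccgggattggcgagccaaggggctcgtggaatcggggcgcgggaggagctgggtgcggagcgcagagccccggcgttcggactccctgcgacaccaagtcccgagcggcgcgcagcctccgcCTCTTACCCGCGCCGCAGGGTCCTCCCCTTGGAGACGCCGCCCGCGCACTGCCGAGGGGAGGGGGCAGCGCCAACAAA
Col4a2, chr8:11312555-11312854, plus strand: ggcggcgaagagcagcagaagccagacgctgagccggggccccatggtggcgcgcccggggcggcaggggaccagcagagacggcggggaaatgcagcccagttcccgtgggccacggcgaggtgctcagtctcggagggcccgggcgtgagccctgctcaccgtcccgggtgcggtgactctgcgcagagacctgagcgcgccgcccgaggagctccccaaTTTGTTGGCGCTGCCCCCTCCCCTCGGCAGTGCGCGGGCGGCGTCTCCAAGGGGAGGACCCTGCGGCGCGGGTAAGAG
Each window holds a CCAAT box match, at -145 for Col4a1 and at -32 for Col4a2, and GC box matches, 1 for Col4a1 and 3 for Col4a2. The GC box match of Col4a1, at 9, and that of Col4a2 at 7 are the same shared bases, read on opposite strands. The flanking genes went different ways: Irs2, a docking protein of insulin signalling, rose (12.6 ± 0.705 FPKM in Biotin-positive and 11.01 ± 0.653 FPKM in Biotin-negative libraries, limma adjusted p = 0.0243), and Rab20, a small GTPase of membrane traffic, fell (9.46 ± 0.586 FPKM in Biotin-positive and 13.8 ± 0.868 FPKM in Biotin-negative libraries, limma adjusted p = 9.54e-05; SD, n = 3 each).

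Col4a5, a chain of the type IV trimers of kidney and other specialised basement membranes, did not pass. It was at 6.72, 6.43 and 7.56 FPKM in Biotin-positive libraries, against 6.15, 6.30 and 7.15 FPKM in Biotin-negative libraries, and the groups overlapped. Its log2 difference of 0.07 had a 95% interval from -0.10 to 0.24 (limma adjusted p = 0.421), an interval that holds neither the fall of Col4a1 nor that of Col4a2. The chains with which it forms trimers were at most 0.0510 FPKM (Col4a3), 0.0462 FPKM (Col4a4) and 0.0122 FPKM (Col4a6) in any library. Col4a6 starts 1308 bases from Col4a5 on the X chromosome, on the opposite strand, and Col4a3 and Col4a4 are 71 bases apart on chromosome 1.

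Col8a1, a chain of the short-chain type VIII collagen of vessel walls and of the basement membrane of the cornea (chromosome 16, 57624258 to 57754737), rose. It was at 46.4, 43.7 and 44.3 FPKM in Biotin-positive libraries, against 34.5, 34.9 and 33.2 FPKM in Biotin-negative libraries. Every Biotin-positive library was above every Biotin-negative one, with a ratio of the means of 1.31 and a log2 difference of 0.38 (SE 0.0369, limma adjusted p = 2.17e-05). It was the only abundant chain to rise, since Col9a3 and Col20a1 had a mean of 2.83 and 1.22 FPKM in Biotin-positive libraries. Its partner chain Col8a2 was between 0.112 and 0.129 FPKM in Biotin-positive and between 0.121 and 0.180 FPKM in Biotin-negative libraries, too low for a test.

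The 4 tested FACIT chains also went both ways, with 2 rises and 2 falls. Rises made up 37.8% and falls 36.1% of all tested genes. Type IX collagen, which decorates type II fibrils in cartilage, is made of the products of Col9a1, Col9a2 and Col9a3. Col9a1 (chromosome 1, 24177610 to 24252684) was at 0.335, 0.305 and 0.267 FPKM in Biotin-positive libraries, against 2.69, 2.68 and 2.21 FPKM in Biotin-negative libraries. Col9a3 (chromosome 2, 180597790 to 180622189) was at 2.27, 2.60 and 3.63 FPKM in Biotin-positive libraries, against 1.64, 1.86 and 2.11 FPKM in Biotin-negative libraries. Col9a1 was thus low in all 3 Biotin-positive libraries, with a log2 difference of -1.43 (SE 0.0743, limma adjusted p = 4.37e-07), or -2.71 with a pseudocount of 0.1, while Col9a3 was high in them, with one of 0.40 (SE 0.127, limma adjusted p = 0.0183). The rise of Col9a3 did not pass without Biotin-negative replicate 1 (limma adjusted p = 0.0641) or with no filter on low values (limma adjusted p = 0.0503).

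The other chains of cartilage fibrils were near 0. Col9a2 stayed at or under 0.0497 FPKM and Col2a1, the chain of type II collagen, at or under 0.132 FPKM in all 6 libraries. Among 7 chondrocyte markers only the transcription factor gene Sox9 reached testing, and it fell (3.97 ± 0.143 FPKM in Biotin-positive and 8.41 ± 0.402 FPKM in Biotin-negative libraries, SD, n = 3 each, limma adjusted p = 1.18e-06). Acan, the gene of the cartilage proteoglycan aggrecan, averaged 0.0111 FPKM in Biotin-positive libraries and was listed at 0 in the Biotin-negative ones. The summed level of the 7 markers was 3.91 to 4.15 FPKM in Biotin-positive and 8.26 to 8.95 FPKM in Biotin-negative libraries, and its part in the fall of Col9a1 was not tested. Col9a3 shares 234 bases, 6.07% of its exonic length, with Tcfl5 on the opposite strand, which averaged 0.00122 FPKM in Biotin-positive and 0.0102 FPKM in Biotin-negative libraries. Whether the counting used strand is not given in the sources used here.

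Col16a1, a FACIT chain made by fibroblasts and smooth muscle, fell. It was at 4.76, 3.41 and 3.92 FPKM in Biotin-positive libraries, against 10.3, 8.22 and 7.66 FPKM in Biotin-negative libraries (log2 difference -0.95, SE 0.121, limma adjusted p = 0.000121). The groups did not overlap, although the spread within each was wider than for the abundant chains. Col20a1, a FACIT chain first described in chicken, rose, with 1.20, 1.15 and 1.32 FPKM in Biotin-positive libraries, against 0.825, 0.901 and 0.937 FPKM in Biotin-negative libraries. This rise was small (log2 difference 0.23, SE 0.0630, limma adjusted p = 0.00878) at a level near the limit for testing, and it did not pass under quantile normalization (limma adjusted p = 0.0534).

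The remaining classes had 1 tested chain each. Col18a1, a multiplexin whose C-terminal fragment is endostatin, fell, with 30.2, 30.1 and 31.6 FPKM in Biotin-positive libraries, against 82.5, 78.5 and 78.8 FPKM in Biotin-negative libraries (log2 difference -1.36, SE 0.0353, limma adjusted p = 1.21e-08). Col17a1, the transmembrane collagen of the hemidesmosomes of epithelia, fell by much less, with 1.16, 1.11 and 1.07 FPKM in Biotin-positive libraries, against 1.64, 1.34 and 1.60 FPKM in Biotin-negative libraries (log2 difference -0.26, SE 0.0685, limma adjusted p = 0.00880). In both genes the Biotin-positive libraries all lay below the Biotin-negative ones. Col7a1, the chain of the anchoring fibrils, was at 1.25, 1.31 and 1.23 FPKM in Biotin-positive libraries, against 1.37, 1.26 and 1.39 FPKM in Biotin-negative libraries. These groups overlapped, and the 95% interval of its log2 difference of -0.05 ran from -0.18 to 0.09 (limma adjusted p = 0.485).

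The 24 chains below the level for testing were close to 0 throughout. Of these, 23 stayed under 0.5 FPKM in every library, with 0.379 FPKM as their highest value, and Col19a1 among them was listed at 0 in all 6. Besides Col4a3, Col4a4, Col4a6, Col6a4, Col6a5, Col6a6, Col8a2, Col9a2 and Col2a1, the 23 were Col19a1, a FACIT chain, the fibrillar chains Col11a1, Col11a2, Col24a1 and Col27a1, the network chain Col10a1, the FACIT chains Col14a1 and Col22a1, the transmembrane chains Col13a1, Col23a1 and Col25a1, the multiplexin Col15a1, and Col26a1 and Col28a1, which belong to none of the classes named above. Only Col12a1, a FACIT chain of tendon and other type I fibrils, reached 0.5 FPKM, with 0.766, 0.485 and 0.693 FPKM in Biotin-positive libraries, against 0.0336, 0.0303 and 0.0267 FPKM in Biotin-negative libraries. All 3 Biotin-positive libraries were above all Biotin-negative ones, with a ratio of the means of 21.5 and no test, since the filter left the gene out.

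**Figure D3:**
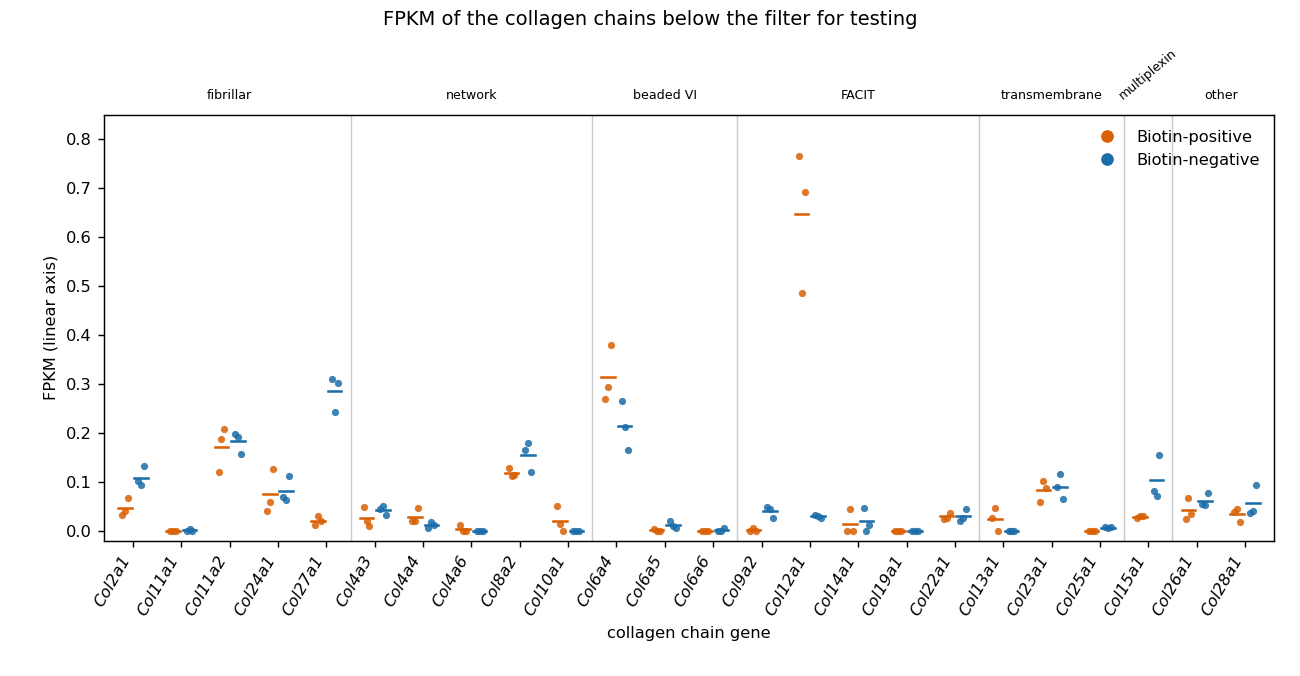
FPKM of the 24 collagen chains below the level for testing on a linear axis, grouped by class, with 1 point per library and a line at the mean of each group of 3 libraries. Col12a1 stands above the rest in Biotin-positive libraries (0.485 to 0.766 FPKM), and Col27a1 lies at 0.0125 to 0.0314 FPKM in Biotin-positive and 0.243 to 0.311 FPKM in Biotin-negative libraries.

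Because the classes fell by different amounts, the make-up of the collagen transcripts differed between the groups. Type VI chains made up 9.16% ± 0.157 of the summed collagen FPKM in Biotin-positive libraries and 31.5% ± 0.0561 in Biotin-negative libraries (SD, n = 3 each). Fibrillar chains made up 60.5% ± 0.0684 in Biotin-positive and 51.1% ± 0.112 in Biotin-negative libraries, and network chains 25.0% ± 0.0216 in Biotin-positive and 12.5% ± 0.0316 in Biotin-negative libraries. These shares are bound to each other, since the fall of one class raises the share of the rest. They also depend on the gene lengths used, which are not given. In FPKM the ratio of the summed levels, Biotin-positive over Biotin-negative, was 0.116 for type VI, 0.383 for multiplexins, 0.471 for fibrillar, 0.643 for FACIT, 0.753 for transmembrane, 0.795 for network and 0.943 for anchoring fibril chains, the last being Col7a1 alone, whose libraries overlapped. Col6a1 alone made up 3.14% ± 0.0668 in Biotin-positive and 15.3% ± 0.121 in Biotin-negative libraries, and Col4a1 11.1% ± 0.0635 in Biotin-positive and 6.02% ± 0.0573 in Biotin-negative libraries.

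**Figure D4:**
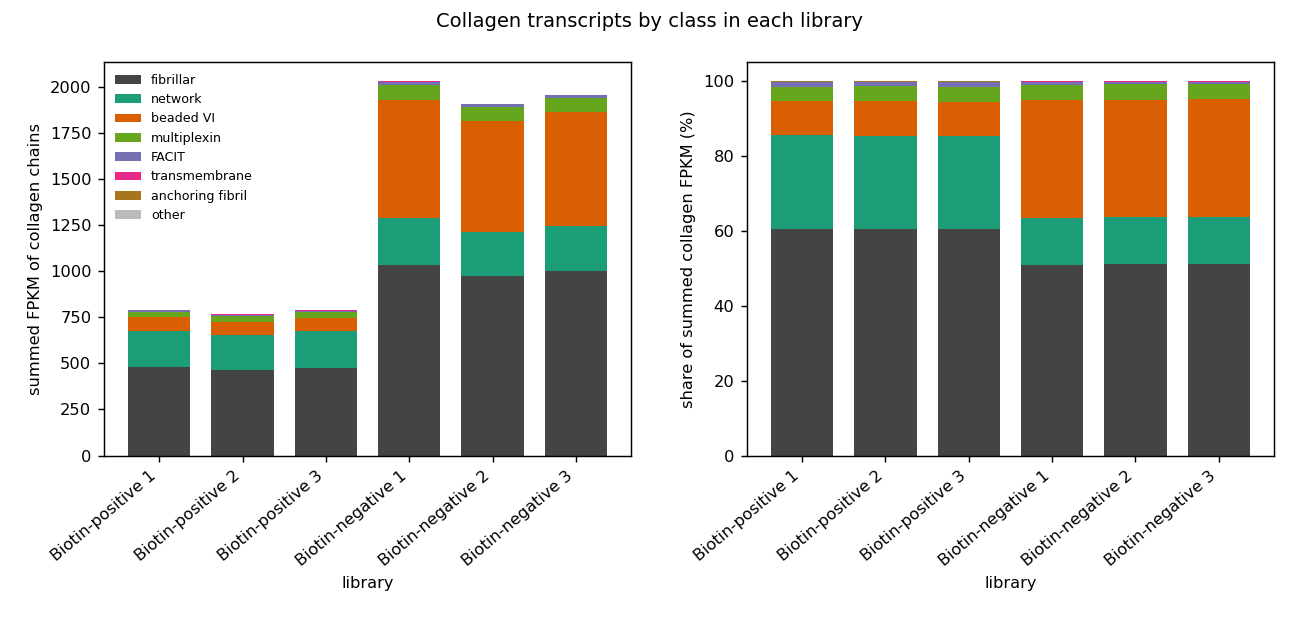
Summed FPKM of the collagen chains by class in each library (left) and the share of each class in that sum in percent (right), with the Biotin-positive libraries left of the Biotin-negative ones. The sums are 768 to 792 FPKM in Biotin-positive and 1911 to 2032 FPKM in Biotin-negative libraries, and the type VI share is 9.16% on average in Biotin-positive and 31.5% in Biotin-negative libraries.

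Whether chains of 1 collagen type moved together was read from the ratio of their FPKM within each library. Such a ratio does not depend on how libraries are scaled. Its level depends on the gene lengths used, which are not given, but its shift between the groups does not. Of the pairs of chains of 1 type, 9 had both chains at the level for testing. In all 9 the Biotin-positive and Biotin-negative ratios did not overlap, and each had p = 0.1 in an exact two-sided permutation test, also after adjustment over the 9 pairs. This is the smallest p that 3 against 3 libraries allow, so none could pass 0.05. The levels of 76.9% of all tested genes did not overlap between the groups either. The share among ratios of other gene pairs was not computed, so the lack of overlap cannot be called particular to these pairs. The sizes of the shifts differed widely.

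In types I and IV both chains of each pair fell, but not by equal amounts, and the ratios shifted little beside those to Col6a3. The log2 ratio of Col1a1 to Col1a2 was -0.97, -1.03 and -0.99 in Biotin-positive libraries, against -1.11, -1.16 and -1.17 in Biotin-negative libraries, a mean shift of 0.15. Col1a1 thus stood at 0.502 of the Col1a2 level in Biotin-positive and 0.452 in Biotin-negative libraries. The log2 ratio of Col4a1 to Col4a2 averaged 0.62 ± 0.0262 in Biotin-positive and 0.45 ± 0.0344 in Biotin-negative libraries (SD, n = 3 each), a shift of 0.17. Col1a1 and Col4a1, the chains with the smaller log2 differences, stood higher relative to their partners in every Biotin-positive library than in any Biotin-negative one.

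In type V the Col5a2 level fell less than those of its partners, so that the order of Col5a1 and Col5a2 changed. The log2 ratio of Col5a1 to Col5a2 was -0.23, -0.24 and -0.20 in Biotin-positive libraries, against 0.40, 0.31 and 0.35 in Biotin-negative libraries, a shift of -0.58. It was below 0 in all Biotin-positive libraries and above 0 in all Biotin-negative ones, but where 0 falls depends on the gene lengths used. The ratio of Col5a1 to Col5a3 shifted by only -0.15 on the log2 scale, and that of Col5a2 to Col5a3 by 0.43.

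In type VI, Col6a1 and Col6a2 stayed close to each other and both parted from Col6a3. The log2 ratio of Col6a1 to Col6a2 averaged 0.74 ± 0.0811 in Biotin-positive and 0.48 ± 0.0133 in Biotin-negative libraries (SD, n = 3 each), a shift of 0.26. The log2 ratio of Col6a2 to Col6a3 was -1.19, -1.05 and -1.13 in Biotin-positive libraries, against 1.08, 1.10 and 1.02 in Biotin-negative libraries, a shift of -2.20. Col6a2 stood at 0.458 of the Col6a3 level in Biotin-positive libraries and at 2.10 times that level in Biotin-negative libraries. For Col6a1 these figures were 0.766 in Biotin-positive and 2.92 in Biotin-negative libraries, a log2 shift of -1.93.

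The type IX pair was among the 9 only because Col9a1 reached the level for testing in Biotin-negative libraries. The log2 ratio of Col9a1 to Col9a3 was -2.76, -3.09 and -3.77 in Biotin-positive libraries, against 0.72, 0.53 and 0.06 in Biotin-negative libraries. The shift of -3.64 came from chains of under 4 FPKM that moved in opposite directions, and leaving out single libraries gave shifts from -3.86 to -3.36.

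**Figure D5:**
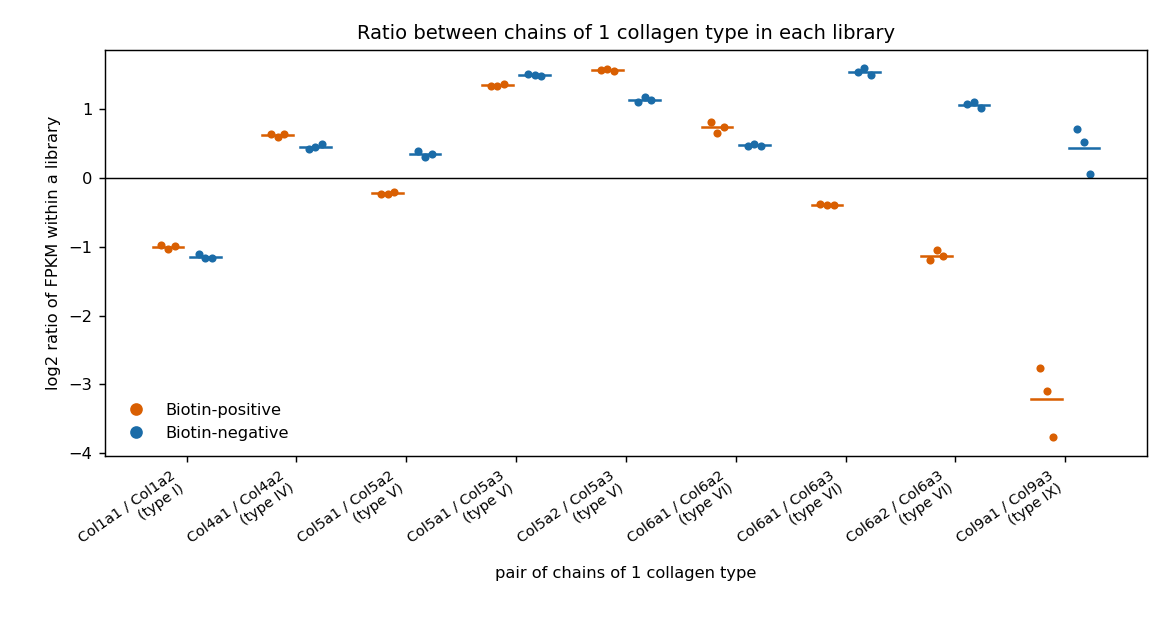
Log2 ratio of the FPKM of chains of 1 collagen type within each library, with 1 point per library and a line at the mean of each group of 3 libraries (Biotin-positive left of Biotin-negative in each pair). Types I and IV shift by 0.15 and 0.17, and the ratios to Col6a3 and to Col9a3 change sign between the groups.

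Most tested genes that make collagen ready for secretion fell as well. Of 19 genes for synthesis, folding and modification in the endoplasmic reticulum, 16 were tested, of which 13 fell, 2 rose and 1 did not pass (median log2 difference -0.33), beside 36.1% of all tested genes that fell, 37.8% that rose and their median of 0.01. The largest fall was that of Plod1, a lysyl hydroxylase, with 9.16 ± 1.54 FPKM in Biotin-positive and 20.2 ± 3.61 FPKM in Biotin-negative libraries (SD, n = 3 each; log2 difference -1.06, limma adjusted p = 0.000119). The log2 difference was -0.83 for the prolyl 3-hydroxylase family gene P3h3, -0.62 for P4ha1, a catalytic subunit of prolyl 4-hydroxylase, -0.55 for Colgalt1, which adds galactose to hydroxylysine, -0.55 for Tram2, which couples collagen synthesis to the translocon, and -0.47 for P4hb, the other subunit of prolyl 4-hydroxylase. The genes that rose, named after their values were seen, were Plod3, another lysyl hydroxylase (87.5 ± 2.34 FPKM in Biotin-positive and 70.1 ± 2.07 FPKM in Biotin-negative libraries), and the prolyl isomerase gene Ppib (299.7 ± 3.75 FPKM in Biotin-positive and 264 ± 2.12 FPKM in Biotin-negative libraries). The collagen chaperone gene Serpinh1 (HSP47), also named after its values were seen, fell to 523 ± 9.86 FPKM in Biotin-positive libraries, against 647 ± 16.98 FPKM in Biotin-negative libraries.

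Of 17 genes of export and processing, 13 were tested, of which 8 fell, 2 rose and 3 did not pass (median log2 difference -0.44). Of all tested genes 36.1% fell and 37.8% rose. Procollagen proteases had the 2 largest falls of the list. Adamts2, which cuts the N-propeptide, was at 7.73 ± 0.107 FPKM in Biotin-positive and 28.2 ± 1.96 FPKM in Biotin-negative libraries (SD, n = 3 each; log2 difference -1.74, limma adjusted p = 2.77e-08). Bmp1, which cuts the C-propeptide, was at 11.3 ± 0.516 FPKM in Biotin-positive and 24.0 ± 1.11 FPKM in Biotin-negative libraries (log2 difference -1.02, limma adjusted p = 3.39e-07). Adamts14, another N-propeptide protease, had a log2 difference of -0.44, and Adamts3, Tll1 and Tll2 were at or near 0 and not tested. Mia2 and Mia3, which load procollagen into transport carriers, had log2 differences of -0.67 and -0.64, the COPII coat gene Sec24d one of -0.55 and the crosslinking oxidase gene Loxl1 one of -0.51. The founding lysyl oxidase gene Lox averaged 0.0539 FPKM in Biotin-positive and 0.0412 FPKM in Biotin-negative libraries and was not tested. The genes of this list that rose, named after their values were seen, were Loxl3 (log2 difference 0.24) and Pcolce2 (0.21). Loxl3 is a crosslinking oxidase gene like Loxl1. Loxl2 (0.06) and Loxl4 (0.03), of the same family and also named after their values were seen, did not pass.

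Among 15 receptors and uptake genes 8 were tested, with 4 falls, 1 rise and 3 that did not pass (median log2 difference -0.33), beside 36.1% of all tested genes that fell and 37.8% that rose. The collagen-activated kinase genes Ddr1 and Ddr2 went opposite ways. Ddr1 rose, with 19.0 ± 2.79 FPKM in Biotin-positive and 11.5 ± 0.568 FPKM in Biotin-negative libraries (SD, n = 3 each; log2 difference 0.67, limma adjusted p = 0.000209), and Ddr2 fell, with 24.9 ± 0.751 FPKM in Biotin-positive and 40.3 ± 1.06 FPKM in Biotin-negative libraries (log2 difference -0.67, limma adjusted p = 6.85e-07). Mrc2, an endocytic receptor that takes up collagen for breakdown, fell most, with 22.4 ± 0.688 FPKM in Biotin-positive and 68.4 ± 1.897 FPKM in Biotin-negative libraries (log2 difference -1.57, limma adjusted p = 7.14e-09). Antxr1 and Antxr2, receptors that bind type VI collagen among other matrix proteins, fell by 0.94 and 0.71 on the log2 scale. The integrin subunit gene Itgb1 did not pass (142 ± 2.50 FPKM in Biotin-positive and 142 ± 2.13 FPKM in Biotin-negative libraries, limma adjusted p = 0.941), and the collagen-binding partner subunits Itga1, Itga2, Itga10 and Itga11 each averaged under 0.5 FPKM in both groups.

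Of 8 collagen-cleaving protease genes, 7 were in the table and 4 were tested, with 3 falls and 1 rise (median log2 difference -0.34), beside the same 36.1% and 37.8% of all tested genes. The collagenase gene Mmp13 rose, with 1.72 ± 0.146 FPKM in Biotin-positive and 0.0155 ± 0.0269 FPKM in Biotin-negative libraries (SD, n = 3 each; log2 difference 1.42, limma adjusted p = 2.54e-07). It reached testing through the Biotin-positive libraries alone, so that the filter favours a rise. Mmp14, the membrane-bound collagenase, fell to 59.3 ± 1.57 FPKM in Biotin-positive libraries, against 116 ± 5.44 FPKM in Biotin-negative libraries (log2 difference -0.96, limma adjusted p = 1.36e-07). The lysosomal protease gene Ctsk and the gelatinase gene Mmp2 fell by 0.39 and 0.30 on the log2 scale.

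Markers of cell types moved between the groups as well. The counts of calls in these lists stand beside 36.1% of all tested genes that fell and 37.8% that rose. Of 16 epithelial or carcinoma markers, the keratin genes Krt7 (24.7 ± 1.18 FPKM in Biotin-positive and 0.236 ± 0.0759 FPKM in Biotin-negative libraries) and Krt8 (20.8 ± 0.355 FPKM in Biotin-positive and 0.0362 ± 0.0153 FPKM in Biotin-negative libraries, SD, n = 3 each) reached testing and both rose. Both reached it through the Biotin-positive libraries alone, so that the filter favours a rise. The list summed to 46.1 to 48.2 FPKM in Biotin-positive and 1.63 to 1.74 FPKM in Biotin-negative libraries. Of the 14 markers below the level for testing, Epcam averaged 0.0142 FPKM in Biotin-positive libraries and was listed at 0 in Biotin-negative ones, Cdh1 was listed at 0 in Biotin-positive libraries and averaged 0.0118 FPKM in Biotin-negative ones, and Krt5 was listed at 0 in all 6. Krt18, the usual partner of Krt8, averaged 0.00830 FPKM in Biotin-positive and 0.00877 FPKM in Biotin-negative libraries. Krt14 averaged 0.257 FPKM in Biotin-positive libraries and was listed at 0 in Biotin-negative ones, and Grhl2 averaged 0.118 FPKM in Biotin-positive and 0.0247 FPKM in Biotin-negative libraries, with no overlap for either gene. Cdh3 (0.0704 FPKM in Biotin-positive and 0.247 FPKM in Biotin-negative libraries) and Muc1 (0.473 FPKM in Biotin-positive and 0.753 FPKM in Biotin-negative libraries) lay lower in Biotin-positive libraries, also with no overlap. Of 12 fibroblast markers, 8 were tested, with 3 rises and 5 falls, and the list summed to 2139 to 2221 FPKM in Biotin-positive and 1293 to 1307 FPKM in Biotin-negative libraries, most of it from Vim and S100a4. The falls were those of Dpt (log2 difference -2.90), Pdgfrb (-1.18), Pdgfra (-0.74), Pdpn (-0.47) and Prrx1 (-0.27), and the rises those of Vim (1.11), S100a4 (0.42) and Twist1, which averaged 6.41 FPKM in Biotin-positive libraries, stood at 0 in every Biotin-negative library and so passed the filter through the Biotin-positive ones alone. Thy1, Dcn and Lum, defining genes of many fibroblasts, averaged at most 0.236 FPKM in either group. Dcn averaged 0.236 FPKM in Biotin-positive and 0.00320 FPKM in Biotin-negative libraries. Fap, also too low for a test, averaged 0.392 FPKM in Biotin-positive and 0.136 FPKM in Biotin-negative libraries. Neither Dcn nor Fap overlapped between the groups, while Thy1 and Lum did. Leukocyte markers summed to 8.74 to 10.3 FPKM in Biotin-positive and 9.08 to 10.9 FPKM in Biotin-negative libraries, with Ptprc at or near 0. Within them Lyz2 rose (2.42 FPKM in Biotin-positive and 1.36 FPKM in Biotin-negative libraries). Cd68 fell (7.13 FPKM in Biotin-positive and 8.59 FPKM in Biotin-negative libraries, limma adjusted p = 0.0402), although its libraries overlapped between the groups. No endothelial marker reached testing. They summed to 0.451 to 0.811 FPKM in Biotin-positive and 0.174 to 0.242 FPKM in Biotin-negative libraries, where Cdh5 averaged 0.569 FPKM in Biotin-positive and 0.0422 FPKM in Biotin-negative libraries and Pecam1, Kdr and Tek were lower on average in Biotin-positive ones. The part of these markers in the collagen differences was not tested.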

How the data were processed

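RNA of 6 libraries of L929 cells, 3 Biotin-positive and 3 Biotin-negative, was sequenced on an Illumina NovaSeq. The submitters' processing notes name cutadapt 1.9.1, HISAT2 2.2.1, HTSeq 0.6.1 and the build GRCm39. The deposited values are FPKM per gene and library, made by the authors; the program, the length and the denominator behind them, and the use of strand, are not given in the sources used here. The coordinates in the deposited table equal those of GENCODE release 21 for mouse, which is on GRCm38, for 21616 of 21816 shared genes and for all 44 collagen chains, so they are given as GRCm38 in spite of the notes. No depth or counting interval can be given, and errors are SDs over the 3 libraries of a group. This matters most for chains near 1 FPKM.

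Groups came from the labels. Values were taken as log2(FPKM + 1), and genes reaching 1 FPKM in 3 or more libraries were fitted with limma 3.58.1 in R 4.3.3 (lmFit, eBayes with a trend, two-sided, Benjamini-Hochberg over 11029 genes, threshold 0.05). The procedure was tested on simulated data. Ratios of chains within a library were compared with exact permutation tests over libraries. Sequences and motifs came from RefSeq promoter windows, overlaps and Gly-X-Y runs from GENCODE with Biopython 1.88, and near-identical copies were searched with blastn 2.17.0 (at least 100 bases, 98% identity). The only alignment was the 234 bases in which exons of Col9a3 and Tcfl5 overlap, which is not a copy. Figures were made with matplotlib 3.10.9 in Python 3.11.15, tables with pandas 2.3.3.

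The members, the classes, the gene and marker lists and the rule for named genes were chosen with earlier results of these data known. By that rule every chain is accounted for, with each library's value where it was tested or reached 0.5 FPKM, and up to 6 passing genes per pathway list with the largest log2 difference are named. Alternatives were other pseudocounts, filters, scalings and variance priors, the replicate number as a term, each library left out, and a log2 threshold of 1.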

Additional observations from a re-analysis of the deposited data

How the results depend on the processing

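Of 329 log2 differences of the 20 tested chains over 17 alternative settings, 326 kept their direction and their side of the threshold and none reversed. The exceptions were Col9a3 with no filter (limma adjusted p = 0.0503) and without Biotin-negative replicate 1 (limma adjusted p = 0.0641), and Col20a1 under quantile normalization (limma adjusted p = 0.0534). With a minimum of 5 FPKM, which left 15 chains to test, 1 chain rose and 13 fell. With a log2 difference of at least 1 as a further condition, 0 chains rose and 8 fell, beside 583 rises and 376 falls of all tested genes. With no filter, 43 chains were tested, 3 rose and 19 fell; Col12a1 was then among the rises (limma adjusted p = 0.000167), in place of Col9a3, and Col2a1, Col9a2, Col15a1 and Col27a1 joined the falls. Without single libraries, 2 to 3 chains rose and 14 to 15 fell, where Col20a1 (any Biotin-positive library left out) or Col9a1 (any Biotin-negative library left out) was no longer tested. The log2 difference of Col9a1 ranged from -2.71, with a pseudocount of 0.1, to -1.41. Other scalings moved the median of all tested genes by less than 0.1. The labels do not tie equal replicate numbers together, and the correlations of same-numbered libraries' deviations, 0.0371, 0.012 and 0.0143, do not pair them. With the replicate number as a block, 3 chains rose and 15 fell, beside 4113 rises and 3927 falls of all tested genes. The differences of the 9 chain ratios kept their direction in every setting tried. Levels near 1 FPKM are limited by a depth that is unknown.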
